A study of Mus musculus with 14 samples.

Results

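The genes described here are 10 repressors of chromatin that keep germline genes or retroviral sequences silent: E2f6, Pcgf6, Mga, L3mbtl2, Ehmt1, Ehmt2, Setdb1, Trim28, Hells and Ezh2. They were chosen by name, as the 10 rows of those symbols among the 20308 gene symbols of the table, and not by their values. All 10 were among the 13011 genes with enough counts to be tested.

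Gene expression was measured by polyadenylated RNA sequencing of bladder urothelium, the epithelium that lines the bladder, from mouse embryos of mixed C57BL/6; 129S4 strain at embryonic day 15.5. The 5 Dnmt1cKO libraries came from Shhcre/+; Dnmt1flox/flox embryos, in which Cre recombinase expressed from the Shh locus acts on 2 floxed alleles of Dnmt1, the maintenance DNA methyltransferase. The 2 Control libraries came from Shhcre/+; Dnmt1flox/+ embryos, which carry the same Cre allele and 1 floxed Dnmt1 allele. The 7 Cre-negative libraries came from littermates without Cre, for which the labels say no more about the Dnmt1 alleles. The Cre allele sits in the Shh gene itself, so Dnmt1cKO and Control embryos share 1 altered Shh allele. Deletion is limited to cells that express Shh or descend from cells that did. Trypsin was used to part the urothelium from the underlying stroma, and each library is 1 lysate that pools several embryos.

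Each of these proteins acts on histones or DNA to hold a gene off. E2F6, PCGF6, MGA and L3MBTL2 are DNA-binding or scaffold subunits of PRC1.6, a variant Polycomb complex that sits on promoters of meiotic and germ cell genes. EHMT1 (GLP) and EHMT2 (G9a) form a methyltransferase pair that dimethylates histone H3 lysine 9, SETDB1 is recruited by TRIM28 (KAP1) to trimethylate the same residue over endogenous retroviruses, HELLS (LSH) is a nucleosome remodeller needed for normal DNA methylation of repeats, and EZH2 is the methyltransferase of Polycomb repressive complex PRC2, which acts on histone H3 lysine 27. Many germline promoters carry DNA methylation as well as these histone marks, and methylation is copied at each cell division by DNMT1.

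The values are RSEM expected counts, with library totals from 2520509 to 13131921. Levels are given as CPM, counts per 1000000 of the library after TMM scaling. Dnmt1, the targeted gene, had 9.99, 26.7, 123, 31.2 and 49.1 CPM in Dnmt1cKO libraries 1 to 5, against 97.4 and 106 CPM in Control and 41.3 to 192 CPM (median 138) in Cre-negative libraries. Its log2 fold change in Dnmt1cKO against Cre-negative was -1.31 ± 0.51 (adjusted p = 0.249), and -1.998 (adjusted p = 0.0531) without Dnmt1cKO 3 (edgeR). The libraries labelled Dnmt1cKO 3 and Dnmt1cKO 5 lay inside the Cre-negative range for Dnmt1, and Dnmt1cKO 3 had the lowest summed urothelium markers, 5772 CPM against 8096 to 21088 CPM in Control and Cre-negative libraries. The 15 stroma markers of Dnmt1cKO 3 summed to 12100 CPM. The other Dnmt1cKO libraries had 261 to 7572 CPM of stroma markers, the Control libraries 3442 and 12878 CPM, and the Cre-negative libraries 172 to 3319 CPM. Of the tested genes, 11.9% to 29.3% had no count in a Dnmt1cKO library, against 2.28% and 8.96% in Control and 6.76% to 21.5% in Cre-negative libraries. In such bulk tissue fewer cells of a type and less RNA per cell cannot be told apart. The 5 primordial germ cell markers had no count in Dnmt1cKO or Cre-negative libraries and summed to 1.73 and 4.86 CPM in Control libraries.

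None of the 10 repressors was called changed in Dnmt1cKO against Cre-negative urothelium, where 1.10% of all tested genes were called (143 genes, 119 higher and 24 lower). A call is a Benjamini-Hochberg adjusted p under 0.05 over the 13011 genes in the quasi-likelihood test of edgeR. At an unadjusted p under 0.05 there was 1 member, Hells, beside 13.7% of all tested genes, and DESeq2 and limma-voom each called 0. The CPM ranges of Dnmt1cKO and Cre-negative libraries overlapped for all 10, while 0.861% of tested genes lay wholly higher and 0.999% wholly lower in Dnmt1cKO. The median log2 fold change of the 10 was -0.11, beside -0.04 over all tested genes. The intervals were widest for E2f6, Pcgf6 and L3mbtl2 and narrowest for Trim28 and Ehmt1, so the missing calls set limits of very different size.

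**Figure D1:**
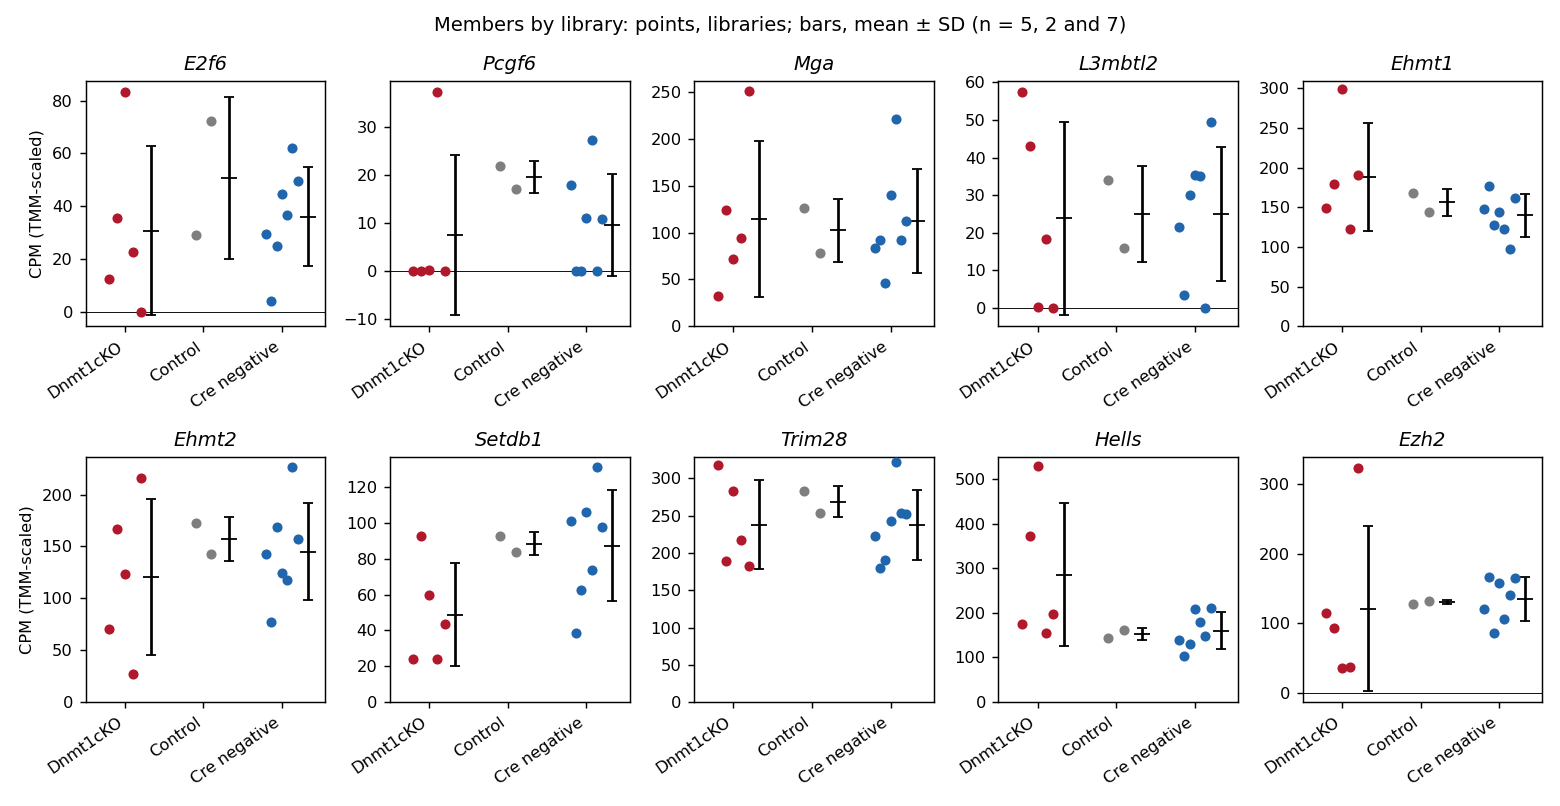
TMM-scaled CPM (vertical axes) of the 10 members in each library of the Dnmt1cKO, Control and Cre-negative groups (horizontal axes); points are libraries and bars are the mean ± SD (n = 5, 2 and 7). The groups overlap in every panel, and single Dnmt1cKO libraries reach 528 CPM for Hells and 324 CPM for Ezh2, above every Control and Cre-negative library.

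Among the 4 PRC1.6 subunits, E2f6, Pcgf6 and L3mbtl2 had the fewest counts of the 10 members in each group, whereas Mga averaged over 100 CPM in each. E2f6, which encodes a repressive member of the E2F family that binds E2F sites, had 12.3, 35.3, 83.2, 22.7 and 0 CPM in Dnmt1cKO libraries 1 to 5, against 29.0 and 72.4 CPM in Control and 4.09 to 62.2 CPM (median 36.8) in Cre-negative libraries. The Dnmt1cKO libraries held both the highest and the lowest value of the 14, and the groups overlapped. The difference was -0.23 ± 0.84 on the log2 scale (95% interval -1.96 to 1.51, adjusted p = 0.964, edgeR). Library 5 had no E2f6 count, which at its depth leaves up to 1.30 CPM (3 counts).

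Pcgf6, the Polycomb ring finger subunit that defines PRC1.6, was near the detection limit in most Dnmt1cKO libraries. It had 0, 0, 0.241, 37.2 and 0 CPM in Dnmt1cKO libraries 1 to 5, from 0, 0, 1, 154 and 0 counts, against 21.9 and 17.2 CPM in Control and 0 to 27.3 CPM (median 10.9) in Cre-negative libraries. Dnmt1cKO 4 was above all others while the other 4 were at or near 0, as were 3 of the 7 Cre-negative libraries. The log2 difference was -0.36 ± 1.79 (95% interval -4.04 to 3.32, adjusted p = 0.977, edgeR) and -7.00 without Dnmt1cKO 4 (adjusted p = 0.232), so this 1 library decided its size. Neither value was called.

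Mga, the large scaffold that also binds E-box and T-box sites, had 32.8, 124, 71.4, 93.8 and 251 CPM in Dnmt1cKO libraries 1 to 5, against 126 and 78.5 CPM in Control and 46.5 to 221 CPM (median 92.4) in Cre-negative libraries. Its highest and lowest libraries were both Dnmt1cKO, and the log2 difference was 0.02 ± 0.43 (95% interval -0.86 to 0.91, adjusted p = 0.997, edgeR). L3mbtl2, the subunit with malignant brain tumour repeats, had 57.4, 43.1, 0.241, 18.4 and 0 CPM in Dnmt1cKO libraries 1 to 5, against 34.1 and 16.0 CPM in Control and 0.127 to 49.4 CPM (median 30.1) in Cre-negative libraries. Libraries at or close to 0 stood in the Dnmt1cKO and the Cre-negative groups. The log2 difference of L3mbtl2 was -0.07 ± 1.136 (95% interval -2.41 to 2.27, adjusted p = 0.996, edgeR). Exons of L3mbtl2 and the antisense gene Chadl overlap, and whether the counting used strand is not given in the sources used here.

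The G9a and GLP pair was measured with more reads. Ehmt1, which encodes GLP, had 149, 180, 299, 123 and 190 CPM in Dnmt1cKO libraries 1 to 5, against 168 and 144 CPM in Control and 97.0 to 177 CPM (median 143) in Cre-negative libraries. In all, 3 of the Dnmt1cKO libraries were above every Cre-negative library and 2 lay within their range. The log2 difference was 0.43 ± 0.29 (95% interval -0.17 to 1.02, adjusted p = 0.585, edgeR), and 0.22 without Dnmt1cKO 3 (adjusted p = 0.839). Ehmt2, which encodes G9a, had 70.2, 167, 124, 27.1 and 216 CPM in Dnmt1cKO libraries 1 to 5, against 172 and 142 CPM in Control and 77.1 to 226 CPM (median 143) in Cre-negative libraries. Here 2 Dnmt1cKO libraries were below all Cre-negative ones and the others were within their range. The log2 difference of Ehmt2 was -0.26 ± 0.39 (95% interval -1.08 to 0.55, adjusted p = 0.870, edgeR). The ratio of Ehmt1 to Ehmt2 per transcript length was 0.597 to 3.06 in Dnmt1cKO, 0.661 and 0.684 in Control, and 0.290 to 1.55 in Cre-negative libraries, so these ranges overlapped too.

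Setdb1 had the lowest fold change of the 10 in Dnmt1cKO against Cre-negative libraries. This H3K9 methyltransferase had 24.0, 92.7, 59.9, 23.9 and 43.5 CPM in Dnmt1cKO libraries 1 to 5, against 92.9 and 83.9 CPM in Control and 38.5 to 131 CPM (median 97.9) in Cre-negative libraries. Here 2 Dnmt1cKO libraries were below all Cre-negative libraries and the other 3 were within their range. The log2 difference was -0.84 ± 0.44 (95% interval -1.75 to 0.08, adjusted p = 0.424, edgeR), or 0.560 times the Cre-negative level. Exons of Setdb1 and the antisense gene Cers2 overlap.

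Trim28, the corepressor that brings SETDB1 to KRAB zinc finger proteins, had 318, 189, 283, 217 and 183 CPM in Dnmt1cKO libraries 1 to 5, against 284 and 254 CPM in Control and 179 to 322 CPM (median 243) in Cre-negative libraries. All 5 Dnmt1cKO libraries lay within the Cre-negative range. Its log2 difference was 0.00 ± 0.25, and the 95% interval of -0.52 to 0.53 leaves changes of up to 1.44-fold higher or to 0.697 times the Cre-negative level (adjusted p = 1, edgeR). That was the narrowest interval among the members.

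Hells was the only member with an unadjusted p under 0.05 in Dnmt1cKO against Cre-negative, and it was not called. It had 176, 373, 528, 154 and 197 CPM in Dnmt1cKO libraries 1 to 5, against 143 and 162 CPM in Control and 103 to 210 CPM (median 148) in Cre-negative libraries. Libraries 2 and 3 stood above all Cre-negative libraries, and the other 3 Dnmt1cKO libraries lay within their range. The log2 difference was 0.84 ± 0.31, or 1.79-fold (95% interval of the log2 difference 0.19 to 1.48, adjusted p = 0.229, edgeR). Without Dnmt1cKO 3, the library with the highest Dnmt1 and stroma levels among the knockouts, it was 0.52 (adjusted p = 0.489). With the stroma mean as a covariate Hells differed by 0.45 (adjusted p = 0.751). The promoter of Hells is shown because it is the member nearest to a call and holds an E2F core motif, the letters of the E2F family to which E2f6 belongs. The window on GRCm38.p6 is chr19:38930740-38931039 on the plus strand, 250 bases before to 50 after the RefSeq start. The capitals mark the 1 match to GCGGGA or its reverse complement TCCCGC, whose first base lies at -60, with position 0 at the start base.
Hells: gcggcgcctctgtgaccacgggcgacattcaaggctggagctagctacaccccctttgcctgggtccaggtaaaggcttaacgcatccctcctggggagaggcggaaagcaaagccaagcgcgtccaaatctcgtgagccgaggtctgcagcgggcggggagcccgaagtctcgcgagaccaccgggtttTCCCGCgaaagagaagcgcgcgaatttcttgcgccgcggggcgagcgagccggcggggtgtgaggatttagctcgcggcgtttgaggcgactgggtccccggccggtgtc

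Across the RefSeq windows, 5 of the 10 members held the E2F core on either strand (E2f6, Ehmt1, Ehmt2, Trim28 and Hells), beside 22.0% of all genes with a window and 40.2% of the tested genes with one. The E-box CACGTG, which MGA and its partner MAX can bind, was present in 1 of the 10, Ehmt2, beside 8.09% of all genes and 11.6% of tested genes. The members' windows had 15 to 40 CpG sites. A match is a description of the letters in this window only.

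Ezh2, the catalytic subunit of PRC2, varied more among Dnmt1cKO libraries than in any other group. It had 115, 92.9, 35.6, 37.2 and 324 CPM in Dnmt1cKO libraries 1 to 5, against 128 and 133 CPM in Control and 85.2 to 166 CPM (median 140) in Cre-negative libraries. Of the Dnmt1cKO libraries 2 were below and 1 was above all Cre-negative libraries. The log2 difference was -0.16 ± 0.43 (95% interval -1.04 to 0.73, adjusted p = 0.948, edgeR), and -0.94 without Dnmt1cKO 5 (adjusted p = 0.292). The coefficient of variation of Ezh2 was 98.0% in Dnmt1cKO, 2.54% in Control and 23.6% in Cre-negative libraries.

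**Figure D2:**
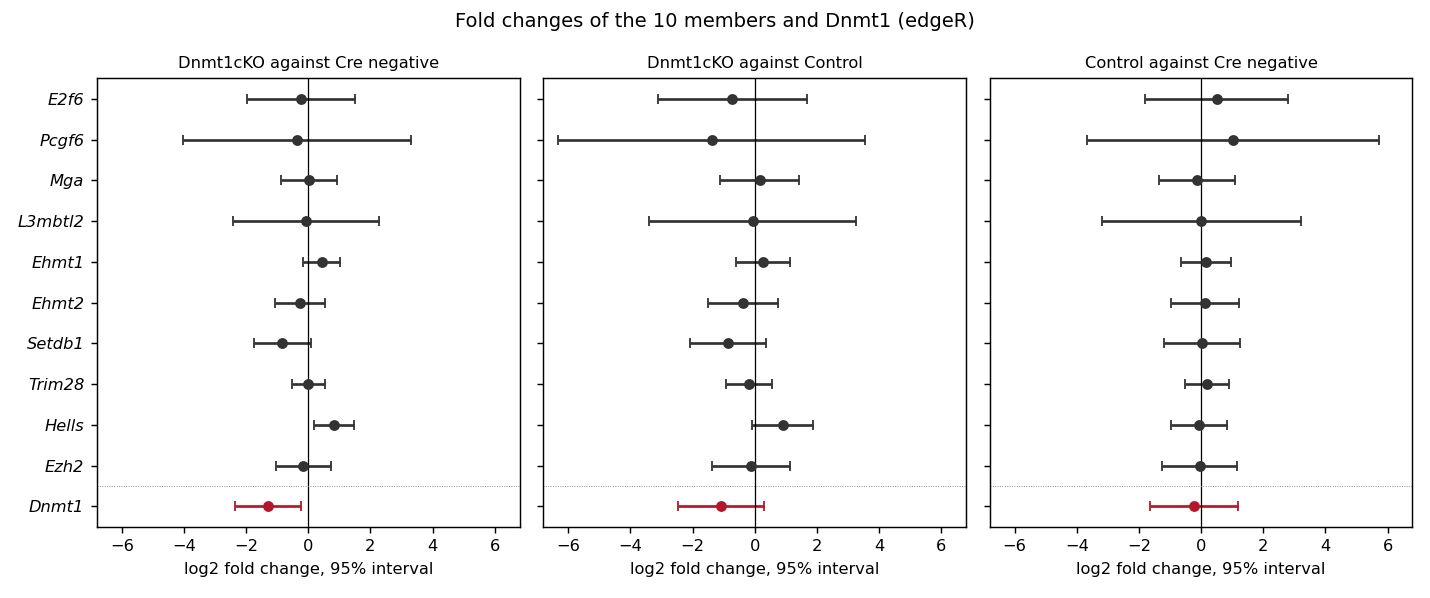
Log2 fold change (horizontal axes, points) with its 95% interval (bars) of the 10 members and Dnmt1 (rows) in Dnmt1cKO against Cre-negative, Dnmt1cKO against Control and Control against Cre-negative libraries. Every member's interval includes 0 apart from that of Hells in the first panel, 0.19 to 1.48, and the intervals of Pcgf6 and L3mbtl2 are the widest.

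The comparison of Dnmt1cKO with Control asks what differed between embryos that all carried Cre. It shares the knockout libraries with the comparison above and has only 2 Control libraries. No member was called, beside 0.177% of tested genes (23 genes, all higher), with 0 members at an unadjusted p under 0.05 in edgeR and 0 called by DESeq2 or limma-voom. The members' ranges overlapped in all 10, beside 2.60% of tested genes wholly higher and 9.74% wholly lower in Dnmt1cKO. Hells differed by 0.90 ± 0.48 (95% interval -0.08 to 1.89, adjusted p = 0.802) and Setdb1 by -0.85 ± 0.60 (95% interval -2.08 to 0.38, adjusted p = 1). Of the 5 Dnmt1cKO libraries, 4 were above both Control libraries for Hells, and 4 were below both for each of Pcgf6, Setdb1 and Ezh2.

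Control against Cre-negative sets the Cre allele with 1 floxed Dnmt1 allele against littermates without Cre, and shares its libraries with the other comparisons. No member was called, beside 0.0538% of tested genes (7 genes, all higher), again with 0 members at an unadjusted p under 0.05 and 0 by DESeq2 or limma-voom. The groups overlapped for all 10 members, beside 6.04% of tested genes wholly higher and 1.90% wholly lower in Control. The log2 differences ran from -0.13 for Mga to 1.02 for Pcgf6. The interval of Hells was -0.97 to 0.83 and that of Trim28 was -0.53 to 0.89.

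Levels per length let the members be compared with each other. In TPM, computed from the expected counts and the longest coding transcript of each gene, Trim28 was the highest member in each group, at 161 ± 44.7 in Dnmt1cKO, 221 ± 34.9 in Control and 179 ± 53.3 in Cre-negative libraries (SD, n = 5, 2 and 7). In Cre-negative libraries the order went on with Ezh2 at 116 ± 31.5, Ehmt2 at 87.45 ± 31.0, Hells at 67.2 ± 23.9, Ehmt1 at 56.0 ± 10.9, Setdb1 at 46.6 ± 19.7, E2f6 at 37.4 ± 20.6, Mga at 20.03 ± 11.5, L3mbtl2 at 17.9 ± 13.2 and Pcgf6 at 11.6 ± 12.7. In that group only the gap of Trim28 to Ezh2 was larger than the larger SD of the pair. Of the 9 neighbouring pairs, 0 differed by more than that SD in Dnmt1cKO and 3 in Control.

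In Dnmt1cKO libraries the order was Trim28, then Hells at 108 ± 62.3 TPM, Ezh2 at 98.4 ± 94.2, Ehmt1 at 69.4 ± 23.8, Ehmt2 at 68.9 ± 45.9, E2f6 at 27.3 ± 27.0, Setdb1 at 24.3 ± 17.9, Mga at 18.3 ± 13.8, L3mbtl2 at 16.3 ± 18.5 and Pcgf6 at 6.16 ± 13.7. In both groups without the knockout Hells stood lower in the order, the fifth in Control at 69.1 ± 0.38 TPM and the fourth in Cre-negative libraries. In Cre-negative libraries the SDs span the gaps of Hells to its neighbours. In Control Hells was close to Ehmt1, but the gap from Ehmt2 to Ehmt1, 34.5 TPM, was above the larger SD of that pair, 22.4 TPM. With the exon union of all transcripts as the length Trim28 was still first in each group and Pcgf6 was last in each, but Ezh2 in Cre-negative libraries was at 72.5 TPM, the fourth behind Ehmt2 and Hells, and not at 116 TPM. By that length Hells had rank 2 in Dnmt1cKO and rank 3 in both Control and Cre-negative libraries.

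**Figure D3:**
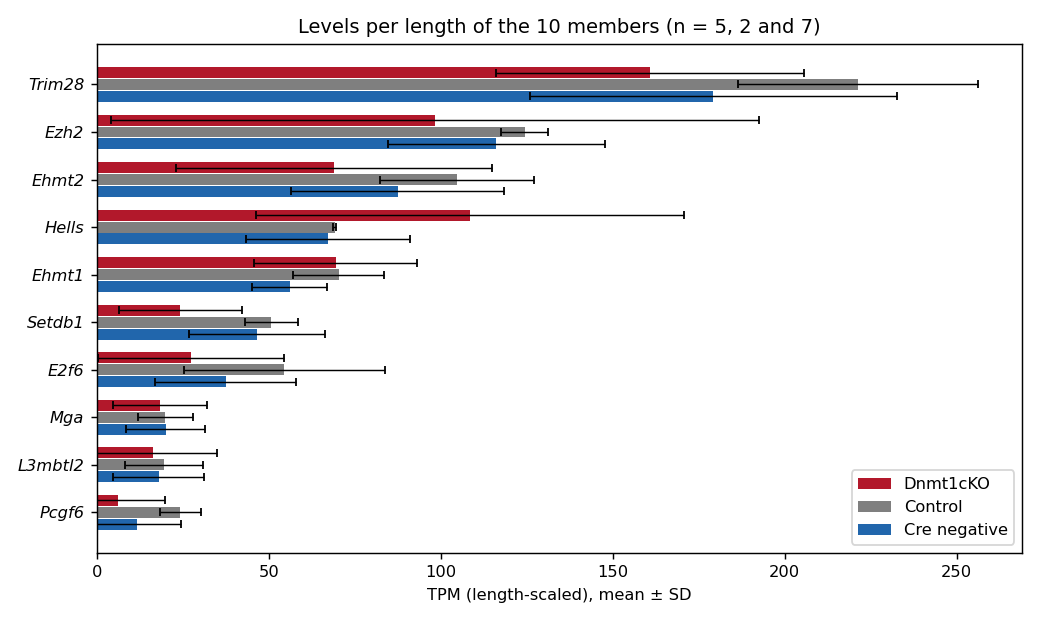
Mean length-scaled TPM (horizontal axis) of the 10 members (rows) in Dnmt1cKO, Control and Cre-negative libraries; bars are means, error bars are SDs that stop at 0 (n = 5, 2 and 7). Trim28 is the longest bar in each group, and the Hells bar of Dnmt1cKO, 108 TPM, is longer than its Control and Cre-negative bars, 69.1 and 67.2 TPM, with overlapping error bars.

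The other subunits and cofactors of these complexes were also without a call. Of 43 tested partner genes in 4 lists, 0 rose and 0 fell in Dnmt1cKO against Cre-negative, beside 1.10% of all tested genes, and 7 had an unadjusted p under 0.05, beside 13.7% of all (edgeR). DESeq2 called 1, Setdb2, with adjusted p = 0.00182, and limma-voom called 0. The median log2 fold change over the 43 was 0.01. Among the 43 was Dnmt1, the targeted gene, itself not called (-1.31 ± 0.51, unadjusted p = 0.0176, adjusted p = 0.249, edgeR).

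Among the other PRC1.6 genes 0 of 10 were called. Max, the dimer partner of MGA, had a log2 difference of -0.97 ± 0.62 (adjusted p = 0.550), the deacetylase Hdac1 -0.38 ± 0.26 (adjusted p = 0.583), Yaf2 0.95 ± 0.78 (adjusted p = 0.692) and the ubiquitin ligase Rnf2 0.46 ± 0.42 (adjusted p = 0.740, edgeR). The list's median was 0.08.

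Among the other genes of H3K9 methylation and of the HUSH silencing complex 0 of 16 tested were called. Setdb2, an H3K9 methyltransferase related to Setdb1, had 3 counts in the 5 Dnmt1cKO libraries together, against 156 in the 2 Control and 896 in the 7 Cre-negative libraries. Its ratio of Dnmt1cKO to Cre-negative levels was 0.00885 (exact 95% counting interval 0.00182 to 0.0259), but 2 Cre-negative libraries were also at 0 and the edgeR adjusted p was 0.137. Morc2a, a HUSH effector, differed by -1.43 ± 0.67 (adjusted p = 0.335), Wiz, a partner of G9a and GLP, by -2.12 ± 1.10 (adjusted p = 0.409), and Suv39h2 by 1.98 ± 1.12 (adjusted p = 0.473, edgeR). The list's median was 0.04.

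Among the other PRC2 genes 0 of 10 were called and the median was -0.28. Rbbp7, a histone-binding subunit shared with other complexes, had 273 to 608 CPM in Dnmt1cKO, 570 and 571 in Control and 597 to 868 CPM in Cre-negative libraries, a log2 difference of -0.65 ± 0.23 (adjusted p = 0.192, edgeR). Eed, which binds the methylated histone tail, differed by 0.92 ± 0.43 (adjusted p = 0.341) and Rbbp4 by 0.61 ± 0.30 (adjusted p = 0.362). Phf1 differed by -3.23 ± 1.97 (adjusted p = 0.523).

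Among the DNA methylation partners of Hells, which include the targeted gene Dnmt1, 0 of 7 tested were called and the median was 0.01. Uhrf1, which brings DNMT1 to half-methylated DNA, had 194 to 295 CPM in Dnmt1cKO, 129 and 165 CPM in Control and 102 to 194 CPM in Cre-negative libraries. All 5 Dnmt1cKO libraries lay above all Cre-negative libraries, as held for 0.861% of tested genes, though the lowest Dnmt1cKO and the highest Cre-negative library both rounded to 194 CPM. The log2 difference of Uhrf1 was 0.69 ± 0.27 (adjusted p = 0.239, edgeR). Dnmt3b, a de novo methyltransferase, differed by 2.25 ± 1.74 (adjusted p = 0.662) and Cdca7, the partner of HELLS, by -0.25 ± 0.50 (adjusted p = 0.915).

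Some germline genes known as targets of E2F6 or PRC1.6 rose in Dnmt1cKO libraries. Of 20 listed genes 19 were in the table and 18 were tested, and 6 of these rose and 0 fell in Dnmt1cKO against Cre-negative, beside 0.915% of tested genes called higher and 0.184% called lower. Genes at 0 outside the knockout pass the filter only through Dnmt1cKO, so the share of tested targets says nothing about the list as a whole. Germline genes were known to rise in these samples when the list was made, so the count is no independent evidence. All 6 were called in each fit without 1 library. Mael was not called once the 3 libraries of lowest depth were left out (edgeR adjusted p = 0.0861), and a stricter filter removed it, whereas the other 5 were called under every alternative run. DESeq2 called 8 higher, and limma-voom called 8 higher and 1, Tdrd1, lower. With the stroma mean as a covariate all 6 were called higher (edgeR). The 5 primordial germ cell markers (Nanos3, Nanos2, Dnd1, Pou5f1 and Prdm14) were at 0 in all Dnmt1cKO libraries. Which cells the target transcripts came from was not tested.

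Taf7l, a germ cell TFIID subunit, had 319, 166, 64.7, 146 and 164 CPM in Dnmt1cKO libraries 1 to 5, against 1.87 and 5.99 CPM in Control and 0 to 0.271 CPM (median 0.161) in Cre-negative libraries (log2 fold change 10.08 ± 0.72, adjusted p = 5.64e-10, edgeR). Dazl, an RNA-binding protein of germ cells, had 40.5, 124, 29.6, 146 and 145 CPM in Dnmt1cKO libraries 1 to 5, against 0.0691 and 0 CPM in Control and 0 to 0.255 CPM in Cre-negative libraries (9.40 ± 0.93, adjusted p = 2.09e-07). Slc25a31, a testis ADP/ATP carrier, had 31.1, 68.4, 99.1, 19.6 and 85.7 CPM in Dnmt1cKO libraries 1 to 5, against 0.207 and 0.486 CPM in Control and 0 to 0.341 CPM in Cre-negative libraries. For each of these 3 genes every Dnmt1cKO library was above all Control and Cre-negative libraries.

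With 1 count in the Cre-negative libraries together, the ratio of Slc25a31 was 3850 (exact 95% counting interval 689 to 152000, edgeR adjusted p = 1.09e-05). Mael, a piRNA pathway gene, had 34.2, 29.7, 0.241, 21.99 and 29.1 CPM in Dnmt1cKO libraries 1 to 5 and no count in Control or Cre-negative libraries (edgeR adjusted p = 0.0140). With the summed count of the 7 Cre-negative libraries set at 3, its ratio to them was 497. The exact 95% counting interval of that ratio, with their count at 0, began at 403. The library labelled Dnmt1cKO 3 held 1 count of Mael. Tuba3a and Tuba3b, testis tubulins with near-identical transcripts between which reads may be split, had 71.6 to 182 CPM and 67.8 to 191 CPM in Dnmt1cKO libraries, and were 2010-fold (688 to 9770) and 2320-fold (793 to 11300) higher than in Cre-negative libraries (edgeR adjusted p = 3.70e-08 and 1.18e-08).

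Against Control 3 of the 18 tested targets rose, beside 0.177% of tested genes. Taf7l differed by 5.47 ± 1.005 (adjusted p = 0.00962), Dazl by 10.65 ± 1.78 (adjusted p = 0.00306) and Tuba3a by 9.61 ± 1.65 (adjusted p = 0.00404). In Control against Cre-negative Taf7l at 4.61 ± 0.72 (adjusted p = 0.00270) and Tuba3b at 5.24 ± 0.92 (adjusted p = 0.0148) rose as well (edgeR). Without Control 1 none of the 3 targets was called against Control (adjusted p 0.184 to 0.762 in edgeR), and without Control 2 only Tuba3a was. Taf7l was not called against Control without Dnmt1cKO 1 either (adjusted p = 0.0810, edgeR). Without Control 2 neither Taf7l (adjusted p = 0.689) nor Tuba3b (adjusted p = 0.926) was called in Control against Cre-negative, and limma-voom called neither (adjusted p = 0.373 and 0.356). The summed level of the 19 targets was 471 to 1004 CPM in Dnmt1cKO, 55.2 and 64.1 CPM in Control and 29.1 to 88.8 CPM in Cre-negative libraries. The summed level of the 10 repressors was 754 to 1485 CPM in Dnmt1cKO, 1103 and 1200 CPM in Control and 841 to 1267 CPM in Cre-negative libraries.

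**Figure D4:**
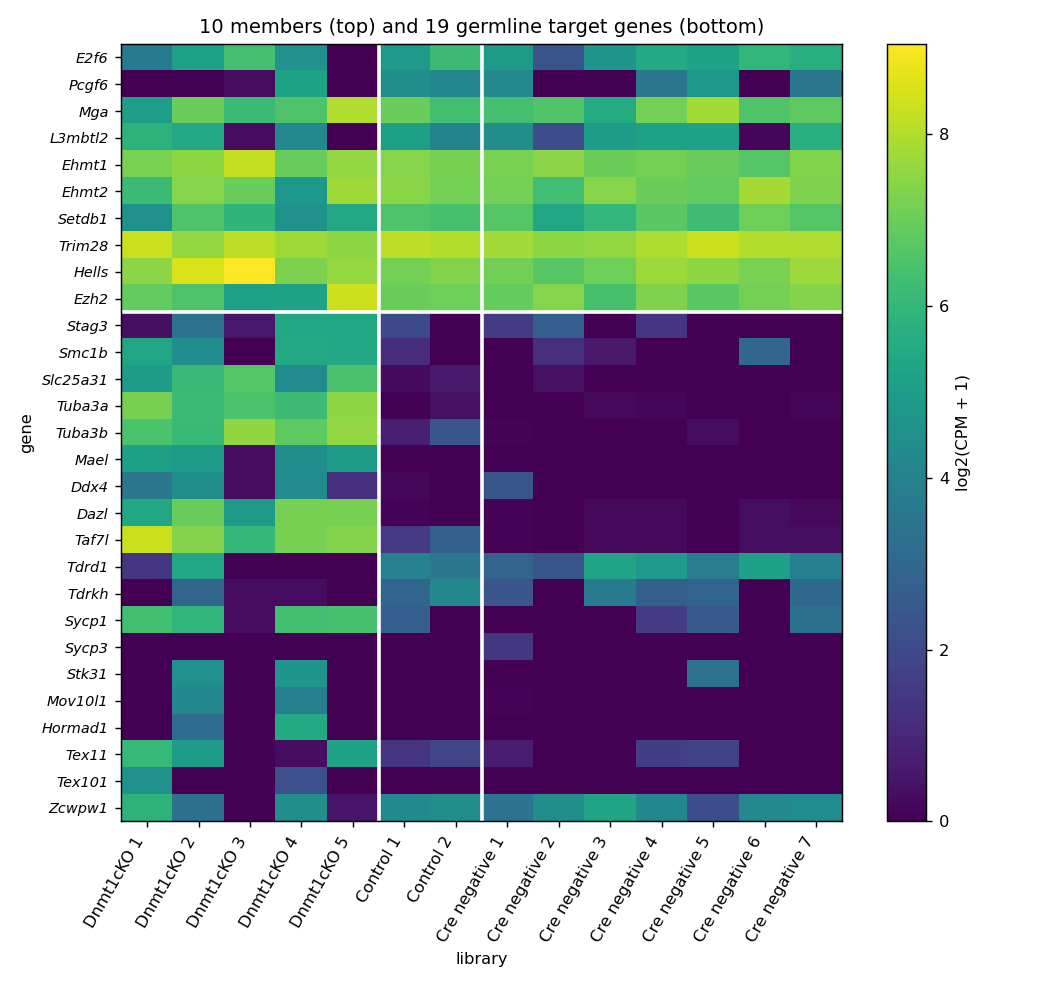
Level as log2(CPM + 1) (colour) of the 10 members (rows above the white line) and the 19 germline target genes (rows below it) in each Dnmt1cKO, Control and Cre-negative library (columns). Member rows differ in colour mostly between genes and between libraries, whereas Taf7l, Dazl, Slc25a31, Tuba3a and Tuba3b are bright in the 5 Dnmt1cKO columns and near 0 in the Cre-negative columns.

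The promoters of 3 of the 6 risen targets are shown because they hold the motifs of the PRC1.6 subunits in different numbers. They are the only risen targets with an E-box in the window. Capitals mark the E2F core (GCGGGA or TCCCGC) and the E-box (CACGTG), found on both strands without overlap, and each window on GRCm38.p6 runs 250 bases before to 50 after the RefSeq start, read 5′ to 3′ on the strand of the gene. Slc25a31 is at chr3:40708621-40708920 on the plus strand, with an E-box at -93 and an E2F core at 20. Mael is at chr1:166238695-166238994 on the minus strand, with an E-box at -223 and E2F cores at -143 and 11. Taf7l is at chrX:134476441-134476740 on the minus strand, with an E-box at -49 and no E2F core.
Slc25a31: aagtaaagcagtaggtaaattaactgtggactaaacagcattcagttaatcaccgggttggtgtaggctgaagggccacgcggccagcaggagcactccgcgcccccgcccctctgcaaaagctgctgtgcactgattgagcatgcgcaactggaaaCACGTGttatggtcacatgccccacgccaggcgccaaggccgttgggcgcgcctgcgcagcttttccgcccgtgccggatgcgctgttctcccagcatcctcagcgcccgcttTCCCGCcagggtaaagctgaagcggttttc
Mael: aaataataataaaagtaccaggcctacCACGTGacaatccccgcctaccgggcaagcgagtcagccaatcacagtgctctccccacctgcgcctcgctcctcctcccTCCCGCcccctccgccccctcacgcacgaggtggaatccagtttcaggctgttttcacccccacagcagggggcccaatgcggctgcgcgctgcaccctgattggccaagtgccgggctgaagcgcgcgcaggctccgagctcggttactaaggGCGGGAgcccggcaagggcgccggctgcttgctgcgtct
Taf7l: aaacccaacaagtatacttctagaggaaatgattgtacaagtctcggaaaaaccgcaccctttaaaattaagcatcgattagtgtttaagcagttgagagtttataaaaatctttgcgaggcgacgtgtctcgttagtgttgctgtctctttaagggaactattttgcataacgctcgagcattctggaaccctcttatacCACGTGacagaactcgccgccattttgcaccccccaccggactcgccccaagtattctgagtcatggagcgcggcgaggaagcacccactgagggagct

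Of the 19 listed targets with a RefSeq window, 11 held the E2F core, 11 the E-box and 7 both, beside 22.0%, 8.09% and 2.65% of all genes with a window and 40.2%, 11.6% and 5.20% of the tested genes. Of the risen targets not shown, Tuba3a and Tuba3b each held 1 E2F core and no E-box, and the window of Dazl held neither motif. The list was made of genes known as targets of these factors, so its motif counts describe the list.

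Most listed targets of G9a, GLP and PRC2 had too few counts to be tested. Of the 8 Magea genes, known as targets of G9a and GLP, 1 was tested, Magea5, with 0 to 13.1 CPM in Dnmt1cKO libraries and no count in Control or Cre-negative libraries. The untested Magea4 and Magea2 had 52 and 11 counts in Dnmt1cKO, each with 4 of 5 libraries at 0, and none in the other groups. With the summed Cre-negative count set at 3, the ratio of Magea5 to that group was 74.9. The exact 95% counting interval of the ratio, with the Cre-negative count at 0, began at 59.6. Magea5 had no count in 2 of the 5 Dnmt1cKO libraries. Its edgeR adjusted p was 0.110, so it was not called, while limma-voom called it (log2 fold change 4.22, adjusted p = 0.0485). Its 4 near-identical relatives (Magea1, Magea2, Magea3 and Magea8) may share its reads. Of 17 developmental regulators known as targets of PRC2, 5 were tested and 0 were called by edgeR or limma-voom, with 2 at an unadjusted p under 0.05 in edgeR, and DESeq2 called 1, Wt1 (log2 fold change 2.95, adjusted p = 0.0370). In edgeR Wt1 differed by 2.89 ± 1.003 (adjusted p = 0.177), Lhx5 by 5.63 ± 2.29 (adjusted p = 0.262) and Gata6 by 0.70 ± 0.74 (adjusted p = 0.781, edgeR). Gata6 turned to -0.79 without Dnmt1cKO 3. The mean level of Wt1 was highest in Control, at 88.3 CPM, against 31.6 CPM in Dnmt1cKO and 4.26 CPM in Cre-negative libraries.

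Of 14 genes of retroviral or retrotransposon origin 10 were tested. In Dnmt1cKO against Cre-negative 1 rose (edgeR), beside 0.915% of tested genes called higher. Peg10, an imprinted gene derived from a Ty3-like retrotransposon, had 747, 725, 266, 588 and 814 CPM in Dnmt1cKO libraries 1 to 5, against 39.5 and 89.2 CPM in Control and 0.691 to 32.2 CPM (median 19.2) in Cre-negative libraries. Every Dnmt1cKO library was above all others, and the log2 fold change was 5.09 ± 0.54 (adjusted p = 7.03e-07, edgeR). Of the rest, Cxx1c differed by -5.32 ± 2.41 (adjusted p = 0.321) and the syncytin Synb by 1.89 ± 1.73 (adjusted p = 0.738). Against Control, Peg10 was not called by edgeR (adjusted p = 0.217). DESeq2 (adjusted p = 0.00172) and limma-voom (adjusted p = 0.00249) called it higher there. Endogenous retrovirus copies were not analysed here.

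How the members varied within groups was described by deviations of log2 CPM from the group mean over the 14 libraries, which share depth and composition. Among the 45 pairs of members the highest Pearson correlation was 0.756, between Setdb1 and Hells, and the lowest was -0.777, between E2f6 and Ezh2. Of 7257 other genes with a mean of at least 20 CPM, the closest to Hells was Xrn2 at 0.938, to Setdb1 Ccdc47 at 0.963, to Ehmt1 Slc25a11 at 0.944 and to Ehmt2 Snd1 at 0.915. The closest gene was Pros1 for E2f6 (0.961), Rps6ka3 for Pcgf6 (0.889), Synpo2 for Mga (0.875), Nelfa for L3mbtl2 (0.960), Prkaca for Trim28 (0.794) and Rcan3 for Ezh2 (0.878).

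Hells and Ezh2 are known to follow the cell cycle. Of 18 proliferation genes, edgeR called 0 in Dnmt1cKO against Cre-negative, beside 1.10% of all tested genes. DESeq2 and limma-voom also called 0 of the 18. In edgeR 0 proliferation genes had an unadjusted p under 0.05, beside 13.7% of all, and their median log2 fold change was 0.01. Their summed level was 2506 to 3299 CPM in Dnmt1cKO, 2444 and 2485 CPM in Control and 1895 to 3412 CPM in Cre-negative libraries. Deviations of Hells followed those of the proliferation mean with Pearson's r of 0.633 (permutation p = 0.0521, adjusted p = 0.454) and Spearman's rho of 0.626 (permutation p = 0.0469, adjusted p = 0.525). Without the 2 libraries farthest from the median r was 0.349, so the relation rests on those libraries. The highest r with the proliferation mean was that of Setdb1, 0.659 (permutation p = 0.0351, adjusted p = 0.454), and 0.284 without those 2 libraries. For Ezh2 r was 0.224 (permutation p = 0.642, adjusted p = 0.862), and -0.0135 without them. None of the 20 relations of the members with the proliferation or stroma mean passed the adjusted threshold.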

How the data were processed

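Polyadenylated RNA was sequenced from 14 libraries of pooled bladder urothelium. The authors deposited a single table, whose unit is the expected count from RSEM. According to the submitters' processing notes, the tools were RSEM 1.2.3, Bowtie 0.12.9 and bcl2fastq 2.17.1.14, with the mm10 build. The annotation and strand use are not given in the sources used here. Expected counts were rounded to whole numbers, filtered with filterByExpr and scaled by TMM, and 13011 genes were tested in 1 fit of all 3 groups with the quasi-likelihood test of edgeR 4.0.16 (R 4.3.3). Alternatives used DESeq2 1.42.0, limma 3.58.1 (voom), other scalings and filters, covariates and left-out libraries. Positions and lengths came from GENCODE M21 (GRCm38), promoter windows from RefSeq on GRCm38.p6, with both available for the 10 members. Near-identical transcripts were sought with BLAST 2.17.0 (at least 95% identity over 50% of the length). Named partner and target genes were the up to 4 of each list with the smallest p in Dnmt1cKO against Cre-negative; Slc25a31 and Mael were added after their values were seen. The members, lists and tests were chosen with earlier results of these data known. No molecular identifiers are described, so intervals on counts and limits of 3 counts cover counting error only. The labels do not say whether lysates of a group came from separate litters, so p-values cover only how much these pooled lysates differ.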

Additional observations from a re-analysis of the deposited data

Results flagged for a closer look

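Of 22 groups of 5 or 7 libraries examined for the 10 members and Dnmt1, 2 held a library that stood apart, where chance flags about 1 in 20 groups. Pcgf6 had 37.2 CPM in Dnmt1cKO 4, and the next Dnmt1cKO library had 0.241 CPM. That gap was 0.994 of the group's range, above Dixon's critical value of 0.710. Ezh2 had 324 CPM in Dnmt1cKO 5, and the next Dnmt1cKO library had 115 CPM, a gap of 0.723 of the range. Dnmt1cKO 5 was the shallowest library, and 3 members (E2f6, Pcgf6 and L3mbtl2) had no count in it.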

How the results depend on the processing

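No member was called in any of the 3 comparisons under any of the 26 alternatives run, 12 of which change the processing, the fit or the groups and 14 of which leave out 1 library. Hells ranged from 0.45 to 1.08 on the log2 scale in Dnmt1cKO against Cre-negative (adjusted p 0.101 to 0.751) and Setdb1 from -1.21 to -0.61 (adjusted p 0.187 to 0.806), each keeping its sign. Of the 620 member values under an alternative 83 changed sign, all uncalled. The cause of a changed sign was not tested. The 6 germline targets called were 5 with a stricter filter, the block, only the 2 groups compared, the 3 shallowest libraries left out or both groups without the knockout as one reference, where Mael was untested or uncalled, and 9 with limma-voom (1 lower) and 8 with DESeq2 or no filter. Against Control, where 3 were called, 0 were called with the block and 1 without the 3 shallowest libraries. In Control against Cre-negative, limma-voom and the fit of only the 2 groups compared each shared 0 genes with the 7 called. The partner genes called were 1 under DESeq2 (Setdb2) and 1 with the stroma covariate (Dnmt1). Alternatives with other lengths were chosen after seeing the data and moved 5 of 30 mean TPM values by more than 1 SD. E2f6, Pcgf6 and L3mbtl2 each had a Dnmt1cKO library at 0. Pcgf6 was also at 0 in Dnmt1cKO 2, where 3 counts correspond to 0.313 CPM. Whether depth accounts for these values at 0 was not tested.

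Genes called in Dnmt1cKO against Cre-negative, 143 as reported with 83.2% higher, were 553 with DESeq2 (58.4% higher), 454 with limma-voom (35.7% higher), 249 with no filter, 95 with a stricter filter, 85 with the stroma covariate and 86 with only the 2 groups compared. Called in Dnmt1cKO against Control were 111 with DESeq2 (78.4% higher) and 232 with limma-voom (25.4% higher). Called in Control against Cre-negative were 21 with DESeq2, 40 with limma-voom, 25 with no filter and 4 with the stroma covariate. The median of all genes, -0.04 in Dnmt1cKO against Cre-negative, was -0.34 with limma-voom, -0.42 with the block and -0.22 with the stroma covariate. In Dnmt1cKO against Control it was -0.78 with limma-voom, -0.38 with the block and -0.12 with upper-quartile scaling, and in Control against Cre-negative 0.15 with limma-voom. Without 1 library the counts ran from 93 (without Cre-negative 7) to 238 (without Dnmt1cKO 2), from 6 (without Control 1) to 37 (without Dnmt1cKO 2), with 9 without Control 2, and from 2 (without Control 2) to 11 (without Control 1). A lone Control library is assumed there to vary like the other groups.

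Signs changed in Dnmt1cKO against Cre-negative as follows. L3mbtl2 was 0.0051 with RLE scaling, 0.0050 with DESeq2, 0.0068 with the stroma covariate and 0.56 with the proliferation covariate. Mga was -0.0088 with upper-quartile scaling, -0.19 with limma-voom, -0.35 with the stroma covariate and -0.23 without the 3 shallowest libraries. Trim28 was -0.0395 with upper-quartile scaling, -0.080 with limma-voom, -0.024 with the stroma covariate, -0.082 without the 3 shallowest libraries and -0.036 with both groups without the knockout as one reference. E2f6 was 0.16 with the proliferation covariate and 0.21 without the 3 shallowest libraries, where Pcgf6 was 0.17. Ezh2 was 0.13 with the stroma covariate. Gata6 was -0.71 with limma-voom and -0.52 with the stroma covariate, which gave -0.28 for Rnf2 and -0.61 for Synb, and Cdca7 was 0.10 with the proliferation covariate.

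In Dnmt1cKO against Control, Mga was -0.20 with limma-voom and -0.095 without the 3 shallowest libraries, and L3mbtl2 was 0.44 with the proliferation covariate. In Control against Cre-negative, upper-quartile scaling gave 0.014 for Hells and 0.028 for Ezh2, limma-voom 0.0076 for Mga and -0.033 for Setdb1, the stroma covariate -0.91 for E2f6, -3.12 for Pcgf6, -0.33 for Setdb1 and 0.59 for Ezh2, and the proliferation covariate -0.034 for Setdb1. Without the 3 shallowest libraries L3mbtl2 was -0.16, Setdb1 -0.074 and Ezh2 0.049.

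Leaving out 1 library at a time, Dnmt1cKO against Cre-negative ran from -0.998 to 0.094 for E2f6, -7.00 to 0.16 for Pcgf6, -0.48 to 0.28 for Mga, -0.69 to 0.26 for L3mbtl2, -0.12 to 0.090 for Trim28, -0.94 to 0.11 for Ezh2 and -0.79 to 1.005 for Gata6. Dnmt1cKO against Control ran from -1.50 to 0.099 for E2f6, -0.35 to 0.55 for Mga, -0.69 to 0.56 for L3mbtl2 and -0.89 to 0.15 for Ezh2. Control against Cre-negative ran from -0.29 to 1.05 for E2f6, -0.48 to 0.18 for Mga, -0.60 to 0.46 for L3mbtl2, -0.074 to 0.14 for Setdb1, -0.14 to 0.057 for Hells and -0.13 to 0.049 for Ezh2.

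No pairing by replicate number was seen: over 9 same-number pairs the correlation of deviations was -0.15 to 0.105, and 1 of 12 libraries matched its own number best. The deviations of the 2 Control libraries mirror each other, and such correlations cannot show that no litter or day was shared. With the replicate number as a block, 75 genes were called in Dnmt1cKO against Cre-negative and 19 in Control against Cre-negative. The block gave -0.065 for Mga and -0.48 for Gata6 in Dnmt1cKO against Cre-negative, -0.44 for Mga and 0.19 for L3mbtl2 in Dnmt1cKO against Control, and 0.38 for Mga, -1.62 for L3mbtl2 and 0.13 for Hells in Control against Cre-negative.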
